A study of Mus musculus with 12 samples.

Results

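The Mir379 to Mir410 cluster is a run of microRNA genes in the imprinted Dlk1-Dio3 domain of mouse chromosome 12. Its members were taken as the 34 listed symbols of the cluster, each with the transcript cluster of highest mean log2 signal. Of these, 29 had a transcript cluster that carries no other symbol, and these 29 of the 41345 transcript clusters on the array are the members described here. The other 5 symbols, Mir134, Mir485, Mir369, Mir410 and Mir412, occur only in 3 transcript clusters shared with the host transcript Mirg, so no value is given for any of them alone.

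Acute hippocampal slices of 350 µm came from mice aged 8 to 11 weeks, with 3 animals per genotype. Ptpn11D61Y mice carried 1 conditional floxed D61Y allele of Ptpn11 beside a wild-type allele, together with Emx1IREScre. The control mice are described in the labels as carrying the conditional allele without Emx1IREScre, but in the account of the breeding in the study as Ptpn11 wild-type with Emx1IREScre, so whether the controls had the Cre is not settled here. Ptpn11 encodes the phosphatase SHP2, and the D61Y exchange makes it overactive. The study describes Cre under the Emx1 promoter as made in forebrain astrocytes and excitatory neurons. Which cells of the slice carried the recombined allele was not measured on these arrays. From every animal, basal slices (B) had the vehicle DMSO and stimulated slices (S) a pulse of 10 min of 2.5 mM 4AP with 50 µM bicuculline in DMSO, and RNA was taken 3 h later. 4AP blocks voltage-gated potassium channels and bicuculline blocks GABAA receptors, which drives network activity. This gave 12 Mouse Gene 2.0 ST arrays in 4 groups of 3: control B, control S, Ptpn11D61Y B and Ptpn11D61Y S.

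The genes of this cluster are transcribed from the maternal chromosome only, in 1 direction, along with the noncoding RNAs Meg3, Rian and Mirg. Drosha and Dgcr8 cut hairpins out of the long primary RNA, Dicer1 trims them, and the mature strand guides Argonaute proteins to messenger RNAs through its seed, bases 2 to 8. In cultured rat neurons the cluster is known as activity-induced through the transcription factor Mef2, and its member miR-134 is known there for acting on dendrites through Limk1 and Pum2. The array labels total RNA, and its signals do not tell the primary RNA, the hairpin and the mature strand of a member apart. Mature microRNAs were assayed apart from the arrays by qPCR in the study, and those values are not used here.

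Mature sequences of all 34 symbols were found in RefSeq (GRCm38.p6), which held 63 mature arms with 58 distinct seeds, and hairpins of 32. The table held no miR-376c-3p, miR-487b-3p, miR-539-3p or miR-485-5p. Among the 63 arms, 5 seeds were shared by more than 1 arm. The Mir376 group is shown first, because Mir376c was the member that passed the filter in most comparisons. Each sequence is written 5′ to 3′ with the seed in capitals, and all lie on the plus strand. They span chr12:109722733-109722754 (376c-5p), chr12:109723471-109723492 (376b-5p), chr12:109723508-109723528 (376b-3p), chr12:109723786-109723807 (376a-5p) and chr12:109723824-109723844 (376a-3p).
mmu-miR-376c-5p: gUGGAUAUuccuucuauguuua
mmu-miR-376b-5p: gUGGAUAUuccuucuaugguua
mmu-miR-376b-3p: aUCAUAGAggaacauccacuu
mmu-miR-376a-5p: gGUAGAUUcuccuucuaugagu
mmu-miR-376a-3p: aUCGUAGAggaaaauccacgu

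The 5p arms of Mir376c and Mir376b share the seed UGGAUAU and differ by the single substitution U19G, counted from 1 at the 5′ end of miR-376c-5p. Their hairpins are printed because 31 bases in a row are the same in both, the longest run shared by any of the 496 pairs of hairpins of the cluster and the only one of 25 or more. In an alignment from end to end they were 80.7% identical, while Mir376c and Mir376a were 60.5% identical with a shared run of 10 bases. The 5p arm is in capitals, and the hairpins lie at chr12:109722718-109722803 (Mir376c) and chr12:109723458-109723539 (Mir376b) on the plus strand.
Mir376c: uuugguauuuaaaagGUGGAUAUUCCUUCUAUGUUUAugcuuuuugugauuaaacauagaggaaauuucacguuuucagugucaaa
Mir376b: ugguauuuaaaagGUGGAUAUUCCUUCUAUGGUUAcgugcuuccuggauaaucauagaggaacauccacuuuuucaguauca
RNA of either gene could bind probes placed in the shared run, so the values of these 2 members are uncertain in that respect.

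Mir544, the other member past the filter, has the arms at chr12:109729335-109729355 and chr12:109729371-109729392 and shares neither seed with another of the 63 arms.
mmu-miR-544-5p: uCUUGUUAaaaagcagagucu
mmu-miR-544-3p: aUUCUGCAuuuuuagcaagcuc

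The other shared seeds join neighbours and distant members alike. AUGUAAC is carried by miR-379-3p (chr12:109709102-109709123) and miR-411-3p (chr12:109710225-109710246), and GGUAGAC by miR-379-5p and miR-1193-5p. GGUUGAC is carried by miR-1197-5p (chr12:109712361-109712381) and miR-758-5p, and GGUUGUC by miR-494-5p and miR-410-5p. Mir379, Mir411 and Mir1197 are printed since they come back below.
mmu-miR-379-3p: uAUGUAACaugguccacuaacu
mmu-miR-411-3p: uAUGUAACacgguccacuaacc
mmu-miR-1197-5p: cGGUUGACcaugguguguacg

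The transcript of the targeted gene was measured first. In Ptpn11D61Y B vs. control B, Ptpn11 differed by -0.09 ± 0.20 on the log2 scale (± standard error here and below, with 3 arrays in each group). This value is a level of the transcript and does not show the D61Y exchange. The 4 arrays of replicate 1 stood apart: their correlation with arrays of replicates 2 and 3 over all transcript clusters was 0.871 to 0.916, against 0.942 to 0.965 among the 8 other arrays. Markers of hippocampal excitatory neurons were present on all arrays, with a mean log2 signal over the 7 genes of 8.71 to 9.13 in replicate 1 and 9.35 to 9.98 in replicates 2 and 3. The 4 astrocyte markers were at 7.76 to 8.18 and 8.88 to 9.25 in the same order, and the interneuron markers were lowest in replicate 1 as well. Control B replicate 1 had the lowest astrocyte (7.76) and interneuron (7.43) values of all arrays. Choroid plexus markers averaged from 4.98 to 6.04 on 11 arrays and 8.65 on Ptpn11D61Y B replicate 3, where Ttr, a marker of that epithelium, stood at 13.01 against 4.59 to 7.18 elsewhere.

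Signals are given as log2 of the deposited intensity with a floor of 1, so that a value of 0 means at or under the floor. The 29 members lie within 34.2 kb. Their mean log2 signal over the 12 arrays ran from 0.42 (Mir411) to 7.28 (Mir679 and Mir667), with a median of 5.15. The median over the 454 other microRNA genes measured alone was 4.29, and that over all transcript clusters was 5.51. A mean of at least 5 was reached by 16 members (55.2%), by 157 of the other microRNA genes (34.6%) and by 61.3% of all transcript clusters. Of the 348 member values, 9 (2.59%) were at the floor, 8 of them in Mir411 and 1 in Mir376c. Among the other microRNA genes 6.52% of the values were at the floor. Signals of different transcript clusters depend on their probes, so these figures order signal and not abundance.

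**Figure D1:**
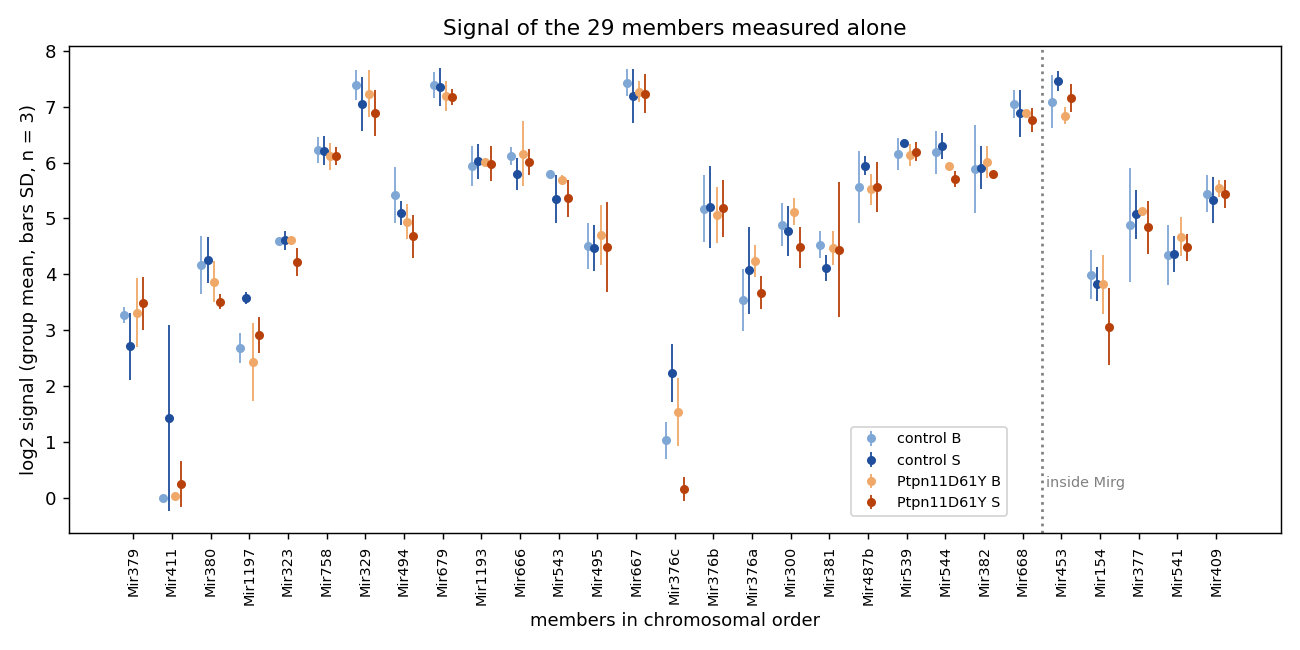
Log2 signal (vertical axis) of the 29 members measured alone, in chromosomal order (horizontal axis); points are group means and bars SD over 3 arrays. Most members lie between 3 and 7.5 in all 4 groups, while Mir411 and Mir376c lie near the floor, and the dotted line marks the start of the members inside Mirg.

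The 4 brightest members were Mir679, Mir667, Mir329 and Mir453, and none of them passed the filter used below in any comparison. Mir679 was at 7.25, 7.28 and 7.65 in control B, 7.61, 7.48 and 6.96 in control S, 7.22, 6.91 and 7.45 in Ptpn11D61Y B and 7.30, 7.18 and 7.02 in Ptpn11D61Y S. Every pair of groups overlapped. Mir667 was at 7.45, 7.17 and 7.65 in control B and 6.63, 7.37 and 7.56 in control S, then at 7.05, 7.35 and 7.39 in Ptpn11D61Y B and 6.84, 7.52 and 7.33 in Ptpn11D61Y S. Its lowest values were both from S arrays of replicate 1.

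Mir329 showed the same low S arrays of replicate 1. It was at 7.55, 7.07 and 7.54 in control B, 6.55, 7.52 and 7.09 in control S, 7.71, 6.99 and 6.99 in Ptpn11D61Y B and 6.41, 7.11 and 7.13 in Ptpn11D61Y S. Mir453, inside Mirg, was at 6.56, 7.22 and 7.50 in control B, 7.38, 7.67 and 7.34 in control S, 6.68, 6.89 and 6.96 in Ptpn11D61Y B and 6.97, 7.44 and 7.07 in Ptpn11D61Y S. Its 3 Ptpn11D61Y S arrays lay just above its 3 Ptpn11D61Y B arrays, a log2 difference of 0.32 ± 0.25 with an unadjusted p = 0.22 from limma. The mature strands of these bright members are as follows, at chr12:109715587-109715608, chr12:109720061-109720083, chr12:109713541-109713562 and chr12:109735669-109735692.
mmu-miR-679-5p: gGACUGUGaggugacucuuggu
mmu-miR-667-3p: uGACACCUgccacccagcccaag
mmu-miR-329-3p: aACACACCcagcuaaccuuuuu
mmu-miR-453: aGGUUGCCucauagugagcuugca

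By mean signal over the 12 arrays, the remaining members fell into a few tiers. Mir668 (6.90), Mir539 (6.21), Mir758 (6.17), Mir544 (6.03) and Mir666 (6.02) were the next brightest. Below them came Mir1193 (5.99), Mir382 (5.90), Mir487b (5.65), Mir543 (5.55), Mir409 (5.44), Mir376b (5.15) and Mir494 (5.04). From Mir539 down to Mir494, neighbours in this order differed by no more than 0.29. That is the median SD within a group of the bright members, a spread of single arrays and not of means over 12 arrays. Whether their order is firm was not tested.

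Signals between 4 and 5 were found for Mir377 (4.99), Mir300 (4.82), Mir495 (4.54), Mir323 (4.51), Mir541 (4.47) and Mir381 (4.39). Mir380 (3.95), Mir376a (3.88), Mir154 (3.67), Mir379 (3.19) and Mir1197 (2.90) were dimmer. Only Mir376c (1.24) and Mir411 (0.42) had values at the floor.

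Neighbours in the cluster differed widely in some places and were close in others, and their likeness was not tested. Mir1193 at 5.99 is followed by Mir666 at 6.02. Mir667 at 7.28 is followed by Mir376c at 1.24, and Mir411 at 0.42 lies between Mir379 at 3.19 and Mir380 at 3.95. The 24 members counted as upstream of Mirg had a median of 5.35. The 5 counted as inside it, Mir453, Mir154, Mir377, Mir541 and Mir409, had a median of 4.99. Mir668 is among the 24, although it lies between Mir134 and Mir485, whose transcript clusters carry the symbol Mirg. Across members, Spearman's rho of the mean signal with chromosomal position was 0.21 (n = 29). With the GC content of the hairpin, Pearson's r was 0.46 and rho 0.44 over the 27 members with a sequence. The same relation held among 373 other microRNA genes, with r of 0.47 and rho of 0.48. These points share the probe chemistry of the arrays, and probe composition was not tested.

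Between replicates, dim members varied more than bright ones. The SD within a group, pooled over the 4 groups, had a median of 0.29 for members with a mean of at least 5 and of 0.50 for the others, from 0.16 for Mir323 to 0.86 for Mir411. Control B replicate 1 was low in the 3 clusters shared with Mirg. Mir134/Mirg was at 6.17 there, against 6.81 and 7.29 on the other control B arrays. Mir485/Mirg was at 5.52 against 6.94 and 7.53, and Mir369/Mir410/Mir412/Mirg at 5.94 against 7.10 and 7.53. The 5 members inside Mirg moved the same way, with a median deviation from their own means of -0.58 on that array and 0.38 on control B replicate 3. The other microRNA genes deviated by 0.26 and 0.13 on these 2 arrays. The low neuron and astrocyte marker values of control B replicate 1 are given above, and their part in the cluster's values was not tested.

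**Figure D2:**
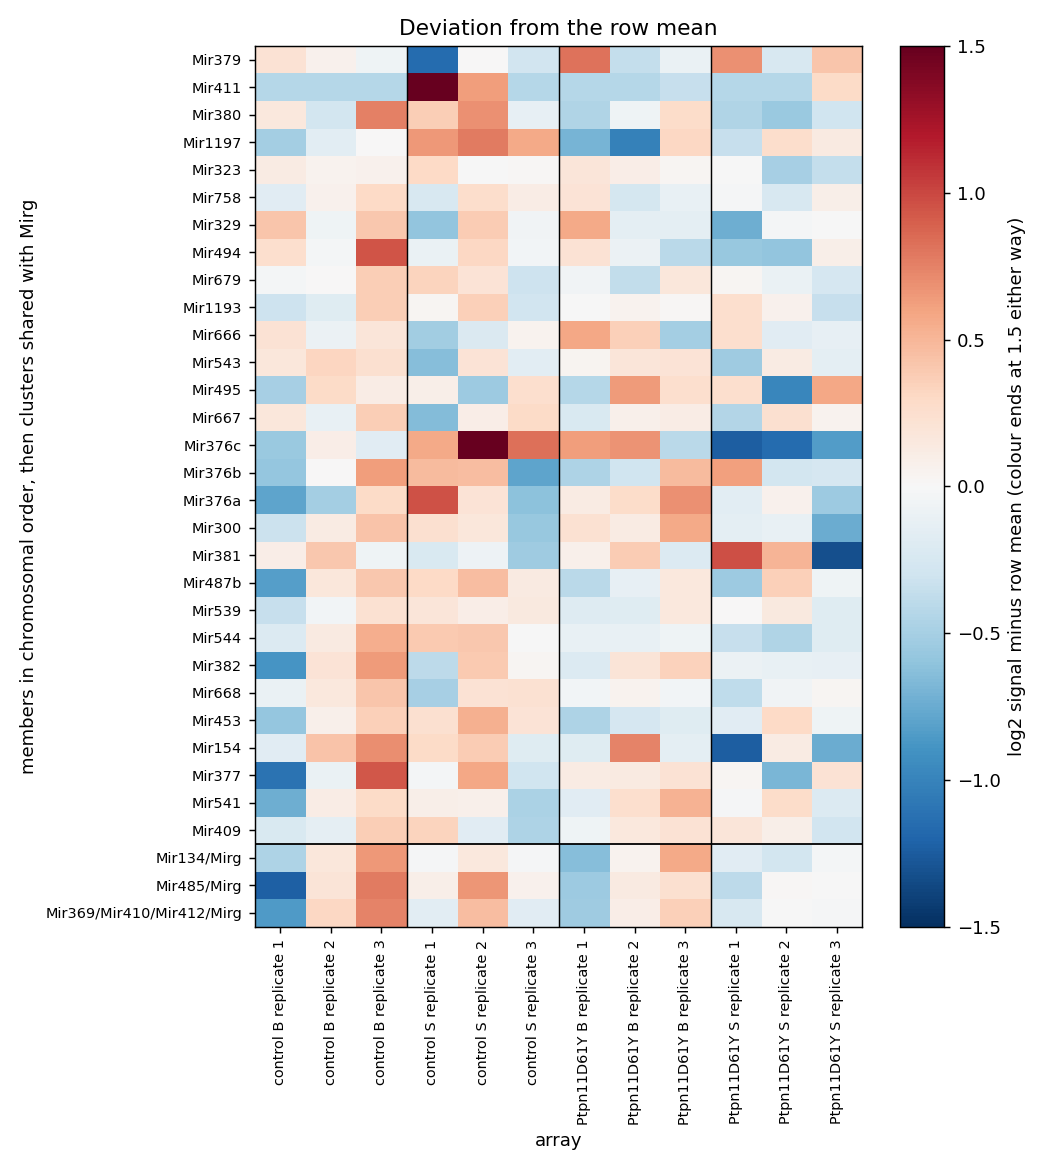
Deviation of each value from its row mean on the log2 scale (colour) for the 29 members in chromosomal order and the 3 clusters shared with Mirg (rows), on the 12 arrays (columns). Control B replicate 1 is low and control B replicate 3 high in the lower rows; Mir376c is high in control S and low in Ptpn11D61Y S.

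Changes were counted with the filter of the study, a fold of at least 1.5 and an unadjusted p under 0.05, here from limma on all 12 arrays. After Benjamini-Hochberg adjustment over the 41345 transcript clusters, 0 members passed an adjusted p of 0.05 in limma in any comparison, and 0 in the test named in the study's methods. At an unadjusted p under 0.05, limma gave 0 members in Ptpn11D61Y B vs. control B, 1 in control S vs. control B, 1 in Ptpn11D61Y S vs. Ptpn11D61Y B, 2 in Ptpn11D61Y S vs. control S and 1 in the difference between the stimulation responses. Over all transcript clusters, the counts at that unadjusted p were 610, 1468, 525, 810 and 482 in the same order. Of all 41345 transcript clusters, 0 had an adjusted p under 0.05 in limma in any comparison. The 4 comparisons share arrays, and their values are set side by side only. In bulk slices, fewer cells of a type and less RNA per cell cannot be told apart.

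In the basal state, the genotype made no member pass the filter. Of the 29 members, 0 passed, against 1.30% of all transcript clusters, and 13 had a log2 fold change above 0. The median was -0.04 for the members, -0.01 for the other microRNA genes and 0.00 for all transcript clusters. Member values ran from -0.48 (Mir494) to 0.70 (Mir376a), and no member had groups that did not overlap, which held for 4.51% of all transcript clusters. Among the members with a mean of at least 5, the 95% interval was narrowest for Mir539, at -0.47 to 0.43, and widest for Mir376b, at -1.09 to 0.86. The brightest member, Mir679, had -0.20 with an interval of -0.69 to 0.29. Of all 29 intervals, those of Mir539 and Mir323 alone stayed within 1.5-fold in both directions, so for the others a difference of that size was not excluded by these arrays.

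The response of control slices to 4AP-bicuculline asked whether the cluster followed activity. Of the 29 members, 1 rose past the filter, Mir376c, and 0 fell, against 0.522% of all transcript clusters that rose and 2.65% that fell. Mir376c was at 0.68, 1.34 and 1.07 in control B and at 1.81, 2.82 and 2.07 in control S. The control S arrays all lay above the control B arrays, at a dim level. The log2 fold change was 1.20 ± 0.54 (95% interval 0.02 to 2.37, unadjusted p = 0.0463, adjusted p = 0.912 from limma). It no longer passed with the replicate number as a fixed block, at the same fold change, and it was lost on leaving out any of 9 of the 12 arrays, controls and Ptpn11D61Y arrays alike.

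Another 2 dim members had high control S values, and they are named after their values were seen. Mir1197 was at 2.39, 2.74 and 2.91 in control B and at 3.55, 3.68 and 3.47 in control S, a difference of 0.89 ± 0.42 (unadjusted p = 0.0572, adjusted p = 0.912 from limma). It passed the filter in the test of the study's methods, where the difference of Tukey bi-weight averages was 0.85. That test took the spread from the cluster's own 2 groups, with an SD of 0.27 in control B and 0.11 in control S. Mir1197 also passed with the 6 arrays alone, without a variance trend, with centred arrays and with repeated quantile normalization. Mir1197 passed as well with the animal as a random block and without Ptpn11D61Y B replicate 3. It did not pass with the replicate number as a fixed block. Groups did not overlap, with S higher, for Mir376c and Mir1197 (6.90% of the members, against 2.03% of all transcript clusters) and, with S lower, for Mir381 (3.45%, against 8.21%). Mir411 was at the floor on every control B array and at 3.25, 1.05 and 0.00 in control S, so that 1 array carried most of its difference of 1.43 ± 0.78.

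For the members as a group, the median log2 fold change in control S vs. control B was 0.00, with 15 of 29 above 0. The other microRNA genes had a median of -0.24, with 28.9% above 0, and 16 of the 454 fell past the filter while 0 rose. Their median of S minus B was -0.61, 0.08 and -0.21 in animals 1, 2 and 3, lowest by far in animal 1. The S array of animal 1 also had the lowest median over all transcript clusters of any array, at 5.19. Over all transcript clusters the median was -0.10, with 41.3% above 0 and 216 calls higher against 1095 lower. This background moved with the scaling: with arrays centred on their median, the median of all transcript clusters was 0.10 with 532 calls higher and 570 lower, and that of the members was 0.20. It also rested on replicate 1, with 176 higher and 374 lower when control B replicate 1 was left out, and 226 higher and 433 lower when the S array of the same animal was. Leaving out the S array of animal 2 or animal 3 raised the calls to 2053 and 2001 in all. By replicate number, the member median of S minus B was 0.51, 0.20 and -0.45 in animals 1, 2 and 3, and the median of the 3 clusters shared with Mirg was 0.69, 0.15 and -0.72. Without control B replicate 1 the member median was -0.23. The animals thus went in opposite directions, and control B replicate 1 and replicate 3 are the arrays that stood lowest and highest for the cluster.

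In Ptpn11D61Y S vs. Ptpn11D61Y B, Mir376c was the 1 of 29 members lower past the filter, against 0.706% of all transcript clusters. Higher past the filter were 0 members, against 0.438%. Mir376c was at 1.87, 1.91 and 0.84 in Ptpn11D61Y B and at 0.00, 0.09 and 0.40 in Ptpn11D61Y S. All S arrays were below the B arrays and 1 was at the floor. The log2 fold change was -1.38 ± 0.54 (95% interval -2.55 to -0.20, unadjusted p = 0.0255, adjusted p = 1 from limma). Ptpn11D61Y B replicate 3, on which Ttr was high, had the lowest of the B values, and without that array the fold change was -1.73. The part of choroid plexus in the value was not tested. It no longer passed without Ptpn11D61Y B replicate 1 (-1.21) or replicate 2 (-1.19), or without Ptpn11D61Y S replicate 1 (-1.29) or replicate 2 (-1.34).

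The member median in Ptpn11D61Y S vs. Ptpn11D61Y B was -0.15, with 8 of 29 above 0, beside -0.10 for the other microRNA genes and -0.02 for all transcript clusters. Groups did not overlap, with S lower, for 5 of 29 members (17.2%), Mir376c, Mir300, Mir323, Mir376a and Mir544, against 3.13% of all transcript clusters. They made up 4 of the 13 members with a mean under 5 and 1 of the 16 brighter ones. Among the other microRNA genes the shares were 4.04% and 3.18% in the same order. S was higher without overlap for Mir453 only, against 1.59% of all transcript clusters. Mir300 had the next smallest p among the 5 members with S lower, with a difference of -0.64 ± 0.32 (unadjusted p = 0.0705, adjusted p = 1 from limma). In the 3 animals the member median was -0.13, -0.05 and -0.35.

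Stimulated slices of the 2 genotypes differed in 2 members, both lower in Ptpn11D61Y S, against 0.406% of all transcript clusters that were lower and 1.43% that were higher past the filter. Mir376c, whose values are given above, was lower by a log2 fold change of -2.07 ± 0.54 (95% interval -3.24 to -0.89, unadjusted p = 0.00245, adjusted p = 1 from limma). It passed with any of the 12 arrays left out, at -2.28 to -1.77, and with replicates 2 and 3 alone (-2.20). With an offset of 16 added to every intensity the difference shrank to -0.31 and was under the 1.5-fold limit, since both groups lie near the floor.

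Mir544 was a member of middle signal. It was at 6.42, 6.44 and 6.03 in control S and at 5.68, 5.58 and 5.85 in Ptpn11D61Y S. The groups did not overlap. The basal levels were 5.82, 6.16 and 6.58 in control B and 5.92, 5.92 and 5.97 in Ptpn11D61Y B. The log2 fold change was -0.59 ± 0.23 (95% interval -1.09 to -0.10, unadjusted p = 0.0223, adjusted p = 1 from limma). It stands just past the 1.5-fold limit, and fell short of it without control S replicate 1 (-0.53) or replicate 2 (-0.52), with replicates 2 and 3 alone (-0.52) and with the offset of 16 (-0.48). It was also lost without Ptpn11D61Y S replicate 1 (-0.58) or replicate 2 (-0.53).

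**Figure D3:**
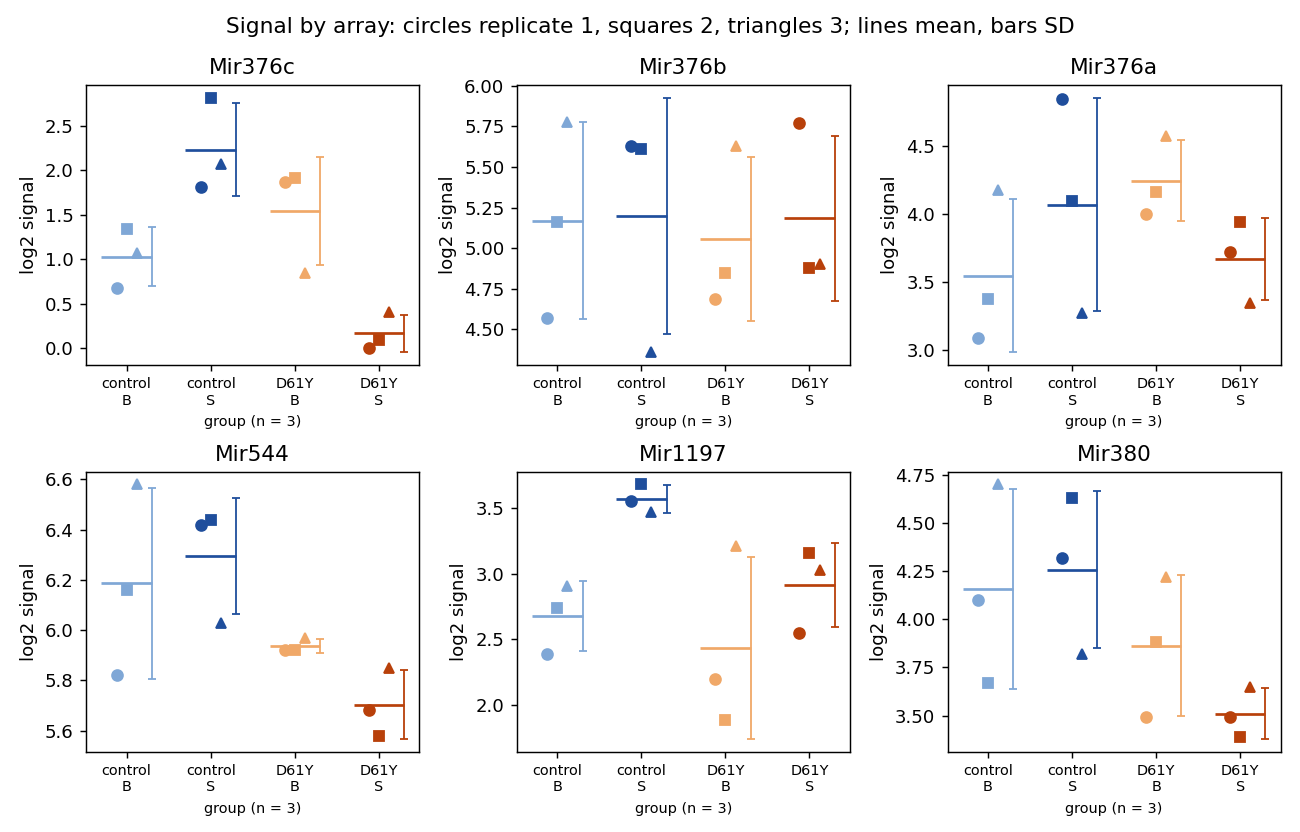
Log2 signal (vertical axes, each with its own range) of 6 members on the 12 arrays by group; circles, squares and triangles are replicates 1, 2 and 3, lines are group means and bars SD (n = 3). Mir376c and Mir544 are lowest in Ptpn11D61Y S, Mir1197 is highest in control S, and Mir376b overlaps in every pair of groups.

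Taking all members, Ptpn11D61Y S lay below control S for 21 of 29. The median was -0.17, where the other microRNA genes had 0.19, with 68.9% above 0, and all transcript clusters 0.06. Groups did not overlap, with Ptpn11D61Y S lower, for 5 members (17.2%), against 1.42% of all transcript clusters. These were Mir376c, Mir544, Mir380, Mir1197 and Mir323. They made up 4 of the 13 members with a mean under 5 and 1 of the 16 brighter ones. Among the other microRNA genes the shares were 1.68% and 1.27% in the same order. In the other direction groups did not overlap for 0 members, against 4.76% of all transcript clusters. Mir380 was at 4.32, 4.63 and 3.82 in control S and at 3.49, 3.39 and 3.65 in Ptpn11D61Y S, a difference of -0.75 ± 0.36 (unadjusted p = 0.0608, adjusted p = 1 from limma). It passed the filter in the test of the study's methods (-0.77), without a variance trend (-0.75), with centred arrays (-0.90), with repeated quantile normalization (-0.97) and without control S replicate 3 (-0.96). A second, dimmer transcript cluster with the symbol Mir380, not used for the member, was at 3.27, 2.48 and 0.00 in control S. In Ptpn11D61Y S that cluster was at 4.34, 2.37 and 0.49, so its groups overlapped. The member median was -0.15, -0.29 and -0.16 when arrays of the same replicate number were set against each other, which come from different animals. The other microRNA genes gave 0.53, -0.07 and 0.00 in the same order, above 0 for replicate 1 only. With replicates 2 and 3 alone the member median was -0.18, with 3 of 29 above 0.

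Among the members that did not pass, Mir379 had the highest positive difference and Mir411 the most negative one in this comparison. Mir379 was at 2.03, 3.20 and 2.90 in control S and at 3.87, 2.95 and 3.61 in Ptpn11D61Y S. The groups overlapped, with a difference of 0.77 ± 0.45 (unadjusted p = 0.113, adjusted p = 1 from limma). Mir411, which shares the seed AUGUAAC of its 3p arm with Mir379, had -1.20 ± 0.78 and rested on the same control S arrays as above. Mir154, inside Mirg, was at 3.96, 4.05 and 3.49 in control S and at 2.44, 3.80 and 2.93 in Ptpn11D61Y S, again with overlap, and differed by -0.78 ± 0.44. Of the members in Ptpn11D61Y S, Mir381 was the most scattered, at 5.35, 4.90 and 3.07.

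The difference between the stimulation responses of the genotypes was past the filter for Mir376c only, against 0.401% of all transcript clusters with a lower value and 0.764% with a higher one. S minus B was 1.12, 1.48 and 0.99 in the control animals and -1.87, -1.81 and -0.44 in the Ptpn11D61Y animals, so that no animal of one genotype overlapped the other. The interaction was -2.57 ± 0.76 on the log2 scale (95% interval -4.24 to -0.91, unadjusted p = 0.00562, adjusted p = 1 from limma). It passed with any 1 array left out, at -2.92 to -2.28. The Ptpn11D61Y S values of 0.00, 0.09 and 0.40 lie at or near the floor, so the size of the difference depends on the scale. With the offset of 16 it shrank to -0.38 and no longer passed, and Mir376c is left out by a filter on dim clusters or on floor values. Mir376b, which shares the seed of its 5p arm with Mir376c, had an interaction of 0.10 ± 0.63 (95% interval -1.28 to 1.47), and its levels were brighter by far: 4.57, 5.16 and 5.78 in control B, 5.63, 5.61 and 4.36 in control S, 4.69, 4.85 and 5.63 in Ptpn11D61Y B and 5.77, 4.88 and 4.90 in Ptpn11D61Y S. Mir376a, the third of the group, had -1.10 ± 0.62 (95% interval -2.45 to 0.26).

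The members were also split by mean signal, after their values were seen. The 16 members with a mean of at least 5 had a median interaction of 0.01, with 8 above 0, from -0.35 to 0.20. The 13 dimmer members had a median of -0.46, with 2 above 0. Among the other microRNA genes the corresponding medians were 0.12 and 0.17. For all 29 members the median was -0.13, beside 0.13 for the other microRNA genes and 0.05 for all transcript clusters. Without control B replicate 1 it was 0.07.

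**Figure D4:**
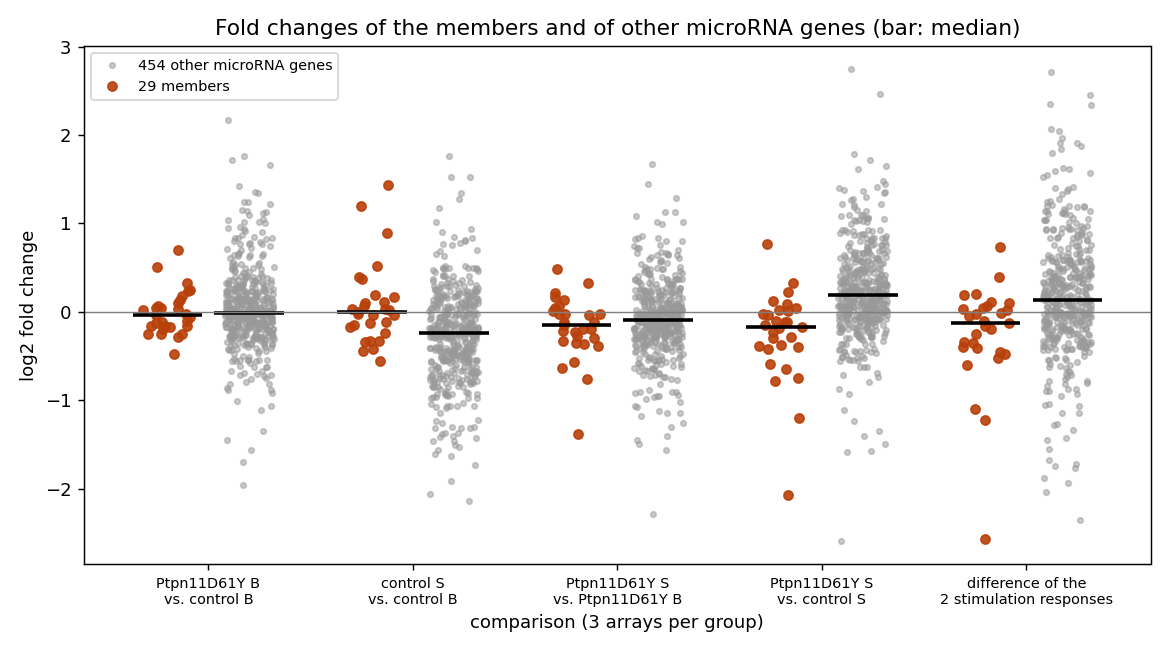
Log2 fold change (vertical axis) of the 29 members (orange) and the 454 other microRNA genes (grey) in the 4 comparisons and the difference of the responses (horizontal axis); black bars are medians. In Ptpn11D61Y S vs. control S the member median is -0.17 and that of the other microRNA genes 0.19.

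Around the cluster, the host and neighbour RNAs did not pass the filter in any comparison, apart from Dio3. Meg3, a noncoding RNA at the start of the maternal transcripts, was at 6.78, 7.63 and 8.20 in control B and 7.00, 8.27 and 7.80 in control S. It was at 6.91, 7.85 and 7.80 in Ptpn11D61Y B and 6.91, 7.92 and 7.90 in Ptpn11D61Y S. The arrays of replicate 1 were the lowest of each group. Its log2 fold change was 0.15 ± 0.44 in control S vs. control B and 0.06 ± 0.44 in Ptpn11D61Y S vs. Ptpn11D61Y B.

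Rian, which hosts small nucleolar RNAs just upstream of the cluster, was at 9.33, 10.00 and 10.39 in control B, 9.49, 10.16 and 9.81 in control S, 9.66, 9.74 and 9.66 in Ptpn11D61Y B and 9.37, 9.82 and 9.88 in Ptpn11D61Y S. All groups overlapped, and its stimulation difference was -0.09 ± 0.31 in control and 0.00 ± 0.31 in Ptpn11D61Y. Mirg had no transcript cluster of its own. Of the 3 clusters shared with it, 0 passed in any comparison, with values from -0.40 to 0.36 in the 4 group comparisons. In Ptpn11D61Y S vs. control S, 2 of the 3 were lower without overlap, against 1.42% of all transcript clusters. These were Mir134/Mirg (-0.20 ± 0.32) and Mir485/Mirg (-0.40 ± 0.43).

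Dio3, a paternally expressed deiodinase gene that inactivates thyroid hormone, was lower in Ptpn11D61Y B. It was at 4.57, 4.74 and 6.48 in control B and at 4.14, 4.06 and 4.08 in Ptpn11D61Y B. The groups did not overlap, but control B replicate 3 was far above the others. The log2 fold change was -1.17 ± 0.49 (unadjusted p = 0.035, adjusted p = 1 from limma). Dlk1, the paternally expressed gene at the other end of the domain, had -0.26 ± 0.61.

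Among the 11 microRNA genes of the domain outside the cluster that were measured alone, 0 passed in any comparison. In Ptpn11D61Y S vs. control S, 2 of the 11 were above 0, with a median of -0.21, and in Ptpn11D61Y B vs. control B 1 of 11, with a median of -0.19.

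The processing machinery showed 0 of 6 genes past the filter in any comparison (Drosha, Xpo5, Dicer1, Ago1, Ago2 and Tarbp2). Their largest value in a group comparison was -0.28, for Tarbp2 in control S vs. control B. Of the listed factors and targets, 0 of 8 passed (Mef2a, Mef2c, Mef2d and Creb1 as transcription factors, Limk1, Pum2, Dcx and Sv2a). In control S vs. control B all 8 were above 0, with a median of 0.28. The median was -0.10 over all transcript clusters and -0.01 over those with a mean of at least 5, as all 8 genes have. Neuron markers differed by a like amount: the median over genes was 8.77 in control B and 9.08 in control S for the excitatory neuron list, and 7.60 and 7.93 for the interneuron list. The arrays of the 2 groups overlapped in both lists, at 8.89 to 9.81 and 9.13 to 9.98 for excitatory neurons. The part of these cells in the values was not tested. Mef2c was at 7.42, 8.75 and 7.68 in control B and 8.08, 8.50 and 8.62 in control S, a difference of 0.45. The groups overlapped. In Ptpn11D61Y S vs. Ptpn11D61Y B, 7 of 8 were above 0, with a median of 0.17. The median over all transcript clusters was -0.02 there, and 0.00 over those with a mean of at least 5. The excitatory neuron list was at 9.27 in Ptpn11D61Y B and lower, at 9.14, in Ptpn11D61Y S. The interneuron list was at 7.59 and 7.83 in the same order.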

How the data were processed

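Signal intensity values of 41345 transcript clusters were deposited by the authors, who corrected the background, quantile normalized and summarised the probes with PLIER (version and genome build not given in the sources used here). They were taken as linear and transformed to log2 with a floor of 1. The medians of the deposited arrays still differed, from 36.5 to 58.1 on the linear scale. With quantile normalization repeated, control S vs. control B had 496 calls higher and 564 lower over all transcript clusters, against 216 and 1095 without it. The number of arrays limits the precision. Members and lists were chosen with earlier results of these data known. Symbols came from the platform annotation, and clusters with several symbols were named for none. Every member was described by its group levels and floor values. Values per array were given for each member past the filter in any comparison and for the 4 members of highest mean signal, and other members shown so were chosen after their values were seen. Tests used limma 3.58.1 in R 4.3.3 on all 12 arrays, with 1 mean per group and a variance trend, adjusted by Benjamini-Hochberg over all clusters. The limma p-values rest on the spread between the 3 arrays of a group, pooled over the 4 groups. That spread is also drawn towards the trend over all clusters. B and S slices of the same animal entered as unpaired, so these p-values do not measure the spread between animals alone. The code was tested on simulated data.

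The labels give B and S slices of the same number in 1 genotype to the same animal. Their residuals correlated at 0.05, -0.01 and 0.04 in control and at 0.55, 0.39 and 0.19 in Ptpn11D61Y. The highest correlation with another number was -0.03, 0.02 and 0.05 in control and -0.36, 0.29 and 0.21 in Ptpn11D61Y. For control animals 2 and 3 and Ptpn11D61Y animal 3 it was the higher value, so the pairing rests on the labels. The chosen model had no term for the animal, which was tried as a block. The alternatives were the test of the study's methods (2 groups, Tukey bi-weight averages), subsets of arrays, other scalings, an offset, filters on dim clusters, other clusters of the same symbol, blocks, and each array left out in turn.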

Additional observations from a re-analysis of the deposited data

Results flagged for a closer look

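Mir376c was singled out because its stimulation response differed between the genotypes by -2.57 on the log2 scale (limma interaction, unadjusted p = 0.00562, adjusted p = 1). Its signal lies near the floor, and with an offset of 16 added to every intensity the difference was -0.38 and no longer passed the 1.5-fold limit. On the scale without the offset, it rose in 3 of 3 control animals and fell in 3 of 3 Ptpn11D61Y animals.

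A second transcript cluster with the symbol Mir376a, which was not used for the member Mir376a, was at the floor on all 6 control arrays. It was at 3.13, 0.00 and 1.42 in Ptpn11D61Y B and at 3.71, 0.00 and 0.00 in Ptpn11D61Y S, and its highest value, 3.71, came from replicate 1, as did 3.13.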

How the results depend on the processing

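Over all alternatives, the median log2 fold change of the members ran from -0.15 (8 of 29 above 0, without control B replicate 1) to 0.02 (16 of 29, without control B replicate 3) in Ptpn11D61Y B vs. control B. For the stimulus in Ptpn11D61Y slices the range was -0.20 to -0.08. In control S vs. control B it became 0.20 with centred arrays and 0.25 with repeated quantile normalization.

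The count in control S vs. control B was the least stable. It was 2 with the test of the study's methods, the 6 arrays alone, centred arrays and repeated quantile normalization, and 3 with no variance trend. It was 0 with the offset of 16, with dim clusters (mean under 5) or clusters with a floor value left out, and with replicates 2 and 3 alone. With the animal as a random replicate block it was 2, and with the replicate number as a fixed block 0; the blocks changed no other count of members past the filter. In Ptpn11D61Y S vs. Ptpn11D61Y B it was 0 with repeated quantile normalization, the offset, either filter, and replicates 2 and 3 alone. In Ptpn11D61Y S vs. control S it was 0 with the offset and 1 with either filter or with replicates 2 and 3 alone. The difference of the responses gave 0 with the offset or either filter, which leave Mir376c out or shrink it. For other changes the cause was not tested.

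Leaving out 1 array gave 0 to 2 members in control S vs. control B (0 without any control B array, without Ptpn11D61Y B replicate 1 or 2 or Ptpn11D61Y S replicate 2 or 3), 0 to 1 in Ptpn11D61Y S vs. Ptpn11D61Y B, 1 to 4 in Ptpn11D61Y S vs. control S (4 without control S replicate 3) and 1 to 2 in the difference. The member medians were -0.23 to 0.13 in control S vs. control B, -0.36 to -0.11 in Ptpn11D61Y S vs. control S and -0.28 to 0.07 in the difference. Values near the floor limit Mir376c and Mir411.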
